A study of Mus musculus with 9 samples.

Results

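Ermn, Cbr2, Sec14l3, Sox2, Hes1 and Notch2 are 6 genes read here as a group because they mark sustentacular cells, the support cells of the olfactory epithelium, or belong to the Notch pathway that is active in them. They were chosen by name, without the detoxification enzymes for which sustentacular cells are best known, and make up 6 of the 24421 genes in the count table. All 6 were among the 20213 genes tested. RNA was measured by polyA-selected, strand-specific sequencing of whole main olfactory epithelium (MOE) from 9 mice, which the labels give as C57BL/6 at postnatal day 14. There were 3 wild-type (WT) mice, 3 heterozygous (het) mice and 3 homozygous (homo) mice for a germline CRISPR-Cas9 deletion of TAAR enhancer 1, a regulatory element near the genes for trace amine-associated receptors (TAARs). The knockout came from a single established line, the deletion was present in every cell of the carriers, and no other allele or agent was named for any of the groups.

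Sustentacular cells span the olfactory epithelium from its surface to its base, wrap the sensory neurons, and carry xenobiotic-metabolising enzymes, which gives them glia-like as well as epithelial properties. Notch signalling runs between touching cells: ligands of the Delta-like and Jagged families on one cell bind a Notch receptor on its neighbour, proteases then release the receptor's intracellular part, and this part acts with Rbpj in the nucleus to switch on targets such as Hes1. In the olfactory epithelium Notch signalling is known for favouring the sustentacular over the neuronal fate, and Notch2 for maintaining sustentacular cells. TAARs, by contrast, are made by olfactory sensory neurons, so that the deleted element belongs to a different cell type from the genes described here.

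None of the 6 genes passed the test in any pair of genotypes, and their levels lay within narrow bands. In homozygous against wild-type mice the 95% intervals of all 6 lay between an 11.2% decrease and a 24.7% increase. Hes1, a Notch target, had the largest fold change at 1.14, with all 3 homozygous libraries above all 3 wild-type libraries, but it did not pass correction. Notch2, the receptor, lay on the other side at a fold change of 0.948, again with separate ranges. Ranges were separate in this comparison for 15.4% of all genes tested, 7.46% higher and 7.95% lower. The sustentacular markers Ermn, Cbr2 and Sec14l3 and the transcription factor Sox2 overlapped between these genotypes. In this whole tissue, fewer cells of a type and less RNA per cell cannot be told apart.

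The libraries held 24583906 to 32631951 reads assigned to genes, and values below are counts scaled to a common library size (CPM) after TMM scaling, a correction for library composition. As a check of the labels, the summed level of Taar2, Taar3, Taar4 and Taar5, which lie beside the deleted element, was 9.11 to 10.3 CPM in wild-type, 5.34 to 6.54 CPM in heterozygous and 0.0387 to 0.106 CPM in homozygous libraries. Reads from 331 vomeronasal receptor genes, which belong to a neighbouring organ, summed to 67.9, 120 and 69.5 CPM in heterozygous library 1 and homozygous libraries 2 and 3, against 14.6 to 17.3 CPM in the other 6. These 3 libraries stand apart in receptors of an organ other than the labelled tissue. The Cbr2 and Hes1 differences changed in size without them and are given both ways. Each library was read as a separate mouse, as the labels number them, and no pooling was stated.

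The promoter sequences of the genes are shown because the members split into those with few and those with many CG dinucleotides (CpG) upstream of their start. Windows from RefSeq (GRCm38.p6; 250 bases before to 50 after the start) were matched for 5 of the 6 members, all but Hes1. Counted over the 300 bases, Cbr2 and Sec14l3 had 4 CpG each, Ermn had 5, Sox2 had 27 and Notch2 had 41, against a median of 7 and quartiles of 3 and 20 over 32851 promoters. Notch2 had more CpG than 96.5% of promoters and Sox2 more than 84.5%, whereas 62.0% of promoters had more than Cbr2 or Sec14l3. The parts upstream of the annotated gene are printed for 4 members, 5′ to 3′ on the strand of the gene, with every CG in capitals: chr11:120732115-120732271 (minus strand) for Cbr2, chr11:4064603-4064840 (plus) for Sec14l3, chr3:34649745-34649994 (plus) for Sox2 and chr3:98013288-98013526 (plus) for Notch2.
Cbr2: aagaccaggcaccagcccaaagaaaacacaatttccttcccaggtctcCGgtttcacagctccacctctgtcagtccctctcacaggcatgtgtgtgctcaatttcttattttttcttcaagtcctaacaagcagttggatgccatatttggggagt
Sec14l3: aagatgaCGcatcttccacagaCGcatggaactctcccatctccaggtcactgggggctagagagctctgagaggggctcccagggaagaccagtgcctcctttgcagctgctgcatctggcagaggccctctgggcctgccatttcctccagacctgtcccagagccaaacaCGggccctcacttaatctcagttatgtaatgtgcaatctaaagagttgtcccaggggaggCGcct
Sox2: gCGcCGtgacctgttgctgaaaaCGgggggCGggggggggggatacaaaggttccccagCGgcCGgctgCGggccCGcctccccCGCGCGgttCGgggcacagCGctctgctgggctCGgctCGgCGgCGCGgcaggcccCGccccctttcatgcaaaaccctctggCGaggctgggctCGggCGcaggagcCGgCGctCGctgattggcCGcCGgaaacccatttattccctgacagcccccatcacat
Notch2: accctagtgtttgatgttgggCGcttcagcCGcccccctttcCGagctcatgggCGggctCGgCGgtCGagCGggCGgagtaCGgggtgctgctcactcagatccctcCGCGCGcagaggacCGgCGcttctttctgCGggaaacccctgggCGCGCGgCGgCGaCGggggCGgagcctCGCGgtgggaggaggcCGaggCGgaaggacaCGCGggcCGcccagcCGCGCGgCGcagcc

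The printed stretches hold 1 CG for Cbr2, 4 for Sec14l3, 27 for Sox2 and 34 for Notch2. For Sox2 the stretch ends at the RefSeq start, at chr3:34649994, while the annotated gene used elsewhere here starts at chr3:34650405. None of the 5 windows held GTGGGAA, the letters bound by Rbpj, on either strand, while 6.38% of all promoters of this length did. That count describes these windows only.

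Per kilobase of exon, the scale on which genes can be compared with each other, the members spanned a wide range of levels in wild-type MOE. Cbr2, a carbonyl reductase, stood at 1206 ± 75.0 CPM per kilobase (SD, n = 3) and ranked 7 among 19427 genes. Sec14l3, a lipid-binding protein of the Sec14 family, followed at 943 ± 32.9 CPM per kilobase (SD, n = 3) and ranked 11. These 2 genes, with 4 CpG each, were among the most abundant transcripts of the tissue, and Ermn, with 5 CpG, was not. A link of CpG number with level was not tested.

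Sox2, a transcription factor of neural and epithelial progenitors that sustentacular cells also keep, was at 39.5 ± 2.19 CPM per kilobase (SD, n = 3), 23.9 times below Sec14l3. Ermn, an actin-binding cytoskeletal protein best known from oligodendrocytes, was at 25.8 ± 0.755, Hes1 at 14.5 ± 0.442 and Notch2 at 11.7 ± 0.351 CPM per kilobase (SD, n = 3 each). No neighbours in this order overlapped in any of the 9 libraries. The closest pairs were Cbr2 over Sec14l3, with a ratio of 1.28 in wild type, and Hes1 over Notch2, with a ratio of 1.24. The length of a gene model sets part of this order: by the longest transcript alone, Hes1 came to 20.1 and Cbr2 to 1441 CPM per kilobase in wild type, which leaves the order of the 6 as it was.

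**Figure D1:**
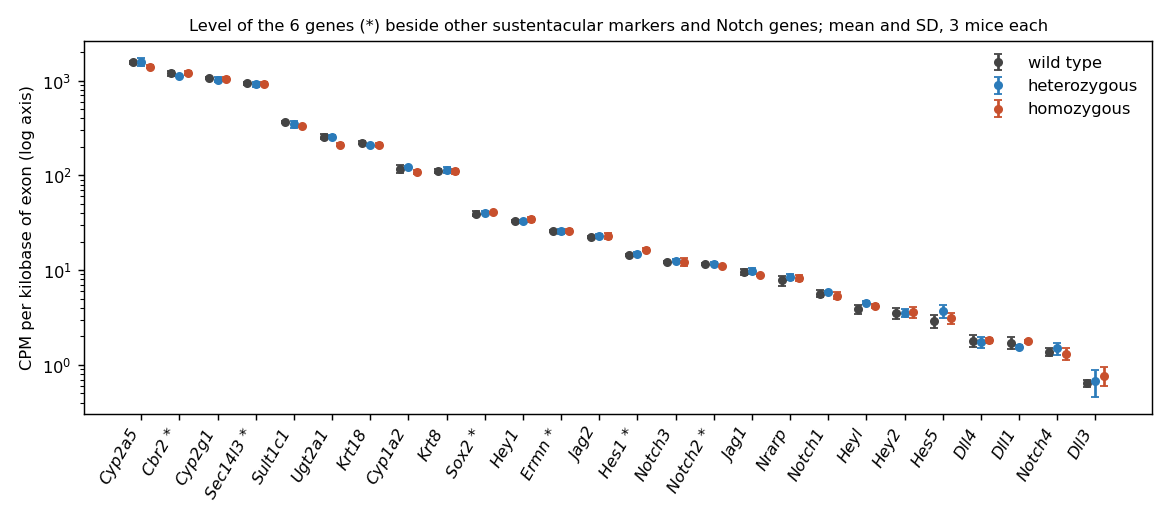
Mean CPM per kilobase of exon (log axis) for the 6 genes, marked with asterisks, beside 7 other sustentacular markers and the Notch receptors, ligands and targets. Points are means and bars SD over 3 mice of each genotype. Cbr2 (1206 in wild type) and Sec14l3 (943) lie among the abundant enzymes, and Hes1 (14.5) and Notch2 (11.7) among the Notch genes.

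Ermn is encoded at chr2:58045113-58052864 (GRCm38, minus strand; 3 exons in its longest transcript). It was read at 91.8, 92.9 and 97.0 CPM in the wild-type libraries, 88.8, 91.6 and 101 CPM in the heterozygous ones and 96.3, 98.6 and 88.9 CPM in the homozygous ones. The ranges overlapped in every pair of genotypes, and the highest and lowest heterozygous libraries bracketed all other values. The log2 fold change was 0.011 ± 0.054 (SE) in homozygous against wild-type mice, with a 95% interval of the difference from -7.00% to 9.16% (edgeR quasi-likelihood test, adjusted p = 0.976). Ermn shares 237 of its 3635 exon bases with Galnt5 on the opposite strand, and 96.0% of its 100-base stretches occur in no other gene. Of the oligodendrocyte markers Mog, Mobp, Opalin and Hapln2, the sum was 0.881 to 1.93 CPM over all libraries and Opalin had a single read in a single library, against the 88.8 to 101 CPM of Ermn.

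Cbr2, at chr11:120729489-120732114 (minus strand; 8 exons), was read at 1542, 1543 and 1715 CPM in wild-type, 1486, 1516 and 1511 CPM in heterozygous and 1684, 1522 and 1623 CPM in homozygous libraries. Wild-type and homozygous values overlapped, and the 3 heterozygous libraries were the lowest of the 9. The heterozygous libraries differed from wild type by -0.089 ± 0.047 on the log2 scale (SE), a fold change of 0.940 with a 95% interval of 0.877 to 1.01 (edgeR quasi-likelihood test, adjusted p = 1.00). Homozygous against wild-type mice gave a fold change of 1.01, with an interval of 0.938 to 1.08. The lowest level was therefore in the intermediate genotype. The libraries high in vomeronasal reads had the lowest Cbr2 level of their genotype, at 1486 CPM in heterozygous library 1 and at 1522 and 1623 CPM in homozygous libraries 2 and 3. Without these libraries the log2 difference of Cbr2 moved from 0.0085 to 0.073 in homozygous against wild type (edgeR, adjusted p = 0.927) and from 0.097 to 0.15 in homozygous against heterozygous mice (edgeR, adjusted p = 0.956), with the lone homozygous library assumed to vary as the other groups did. With the vomeronasal covariate these differences were 0.063 and 0.13 (edgeR, adjusted p = 0.876 and 0.507). The latter, homozygous against heterozygous, had an unadjusted p of 0.0272 (edgeR).

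Cbr2 is also a product of secretory airway cells. Of their 3 markers, Muc5b was read at 349 to 513 CPM and Scgb3a1 at 2.80 to 5.74 CPM, while Scgb1a1 had at most 1 read in any library. Their sum was 383 to 445 CPM in wild-type, 379 to 517 CPM in heterozygous and 352 to 453 CPM in homozygous libraries, and the part of these cells in the Cbr2 level was not tested. Of the 100-base stretches of Cbr2, 94.6% are unique, the rest being shared with Gm11771.

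Sec14l3, at chr11:4064841-4077736 (plus strand; 12 exons), was read at 2554, 2728 and 2594 CPM in wild-type, 2369, 2661 and 2639 CPM in heterozygous and 2523, 2519 and 2679 CPM in homozygous libraries. Heterozygous library 1, one of the 3 with high vomeronasal reads, was the lowest of the 9, and the genotypes overlapped throughout. The fold change of homozygous over wild type was 0.980, with a 95% interval of 0.916 to 1.05 (edgeR quasi-likelihood test, adjusted p = 0.902). All of its 100-base stretches were unique. Sec14l3 is also transcribed in airway epithelium, where the ciliated markers Foxj1, Dnah5, Dnah9, Rsph1 and Ccdc39 were summed. This sum was 403 to 464 CPM in homozygous and 468 to 526 CPM in wild-type libraries, without overlap. Heterozygous libraries spanned 408 to 569 CPM. Of the single genes only Dnah5 and Dnah9 had separate ranges between homozygous and wild-type libraries, and none of the list was called. The part of ciliated cells in the Sec14l3 level was not tested.

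Sox2, a single-exon gene at chr3:34650405-34652461 (plus strand) inside an intron of the noncoding gene Sox2ot, was read at 85.9, 76.9 and 80.8 CPM in wild-type, 84.5, 86.0 and 80.2 CPM in heterozygous and 85.4, 84.4 and 82.6 CPM in homozygous libraries. The homozygous values all lay within the wild-type range, and wild-type library 2 was the lowest of the 9. Homozygous over wild type gave a fold change of 1.04 with a 95% interval of 0.964 to 1.11 (edgeR quasi-likelihood test, adjusted p = 0.804). Sox2 also marks basal progenitors; the summed markers of globose basal cells (167 to 185 CPM in wild type, 173 to 178 CPM in homozygous libraries) and of horizontal basal cells (116 to 132 and 111 to 122 CPM) overlapped as well.

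Hes1, a transcriptional repressor induced by Notch, lies at chr16:30064384-30067796 (plus strand; 4 exons). It was read at 30.2, 28.5 and 29.6 CPM in wild-type, 31.3, 30.2 and 28.6 CPM in heterozygous and 32.1, 34.3 and 34.2 CPM in homozygous libraries. The 3 homozygous libraries were the highest of the 9, while wild-type and heterozygous libraries overlapped. The log2 fold change was 0.19 ± 0.061 (SE) in homozygous against wild-type mice, a fold of 1.14 with a 95% interval of 1.04 to 1.25 (edgeR quasi-likelihood test, adjusted p = 0.397). Against heterozygous mice it was 0.16 ± 0.061, a fold of 1.12 with an interval of 1.02 to 1.22 (adjusted p = 0.379 in the same test). By its p Hes1 ranked 389 of the genes tested in homozygous against wild type, among 9.26% of genes with an unadjusted p under 0.05.

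Within genotypes, Hes1 was higher in the libraries with high vomeronasal reads, where Cbr2 was lower. Ermn, Sec14l3, Sox2 and Notch2 did not have either order in both genotypes. A link with those reads was not tested, and every wild-type library was low in them. The 3 libraries high in those reads had the highest Hes1 level of their genotype, at 31.3 CPM in heterozygous library 1 and at 34.3 and 34.2 CPM in homozygous libraries 2 and 3. The single homozygous library low in vomeronasal reads had 32.1 CPM, still above the 28.5 to 30.2 CPM of wild type. Without the 3 high libraries the log2 fold change of Hes1 was 0.13 (edgeR, adjusted p = 0.925), with that one homozygous library assumed to vary as the other groups did. With the vomeronasal level as a covariate it was 0.12 (edgeR, adjusted p = 0.840). Neither value had an unadjusted p under 0.05.

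Notch2, at chr3:98013527-98150361 (plus strand; 34 exons), was read at 123, 125 and 130 CPM in wild-type, 129, 130 and 121 CPM in heterozygous and 120, 119 and 118 CPM in homozygous libraries. The homozygous libraries were the 3 lowest of the 9 and lay close together, at 119 ± 1.09 CPM (SD, n = 3) against 126 ± 3.78 CPM in wild type. The log2 fold change was -0.077 ± 0.044 (SE) in homozygous against wild-type mice, with a 95% interval of the difference from -11.2% to 1.2% (edgeR quasi-likelihood test, adjusted p = 0.630). Against heterozygous mice the difference was -0.087 ± 0.044, with an interval from -11.8% to 0.470% (adjusted p = 0.523 in the same test). Notch2 shares 541 of its 10782 exon bases with Gm42820, which was not in the count table.

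**Figure D2:**
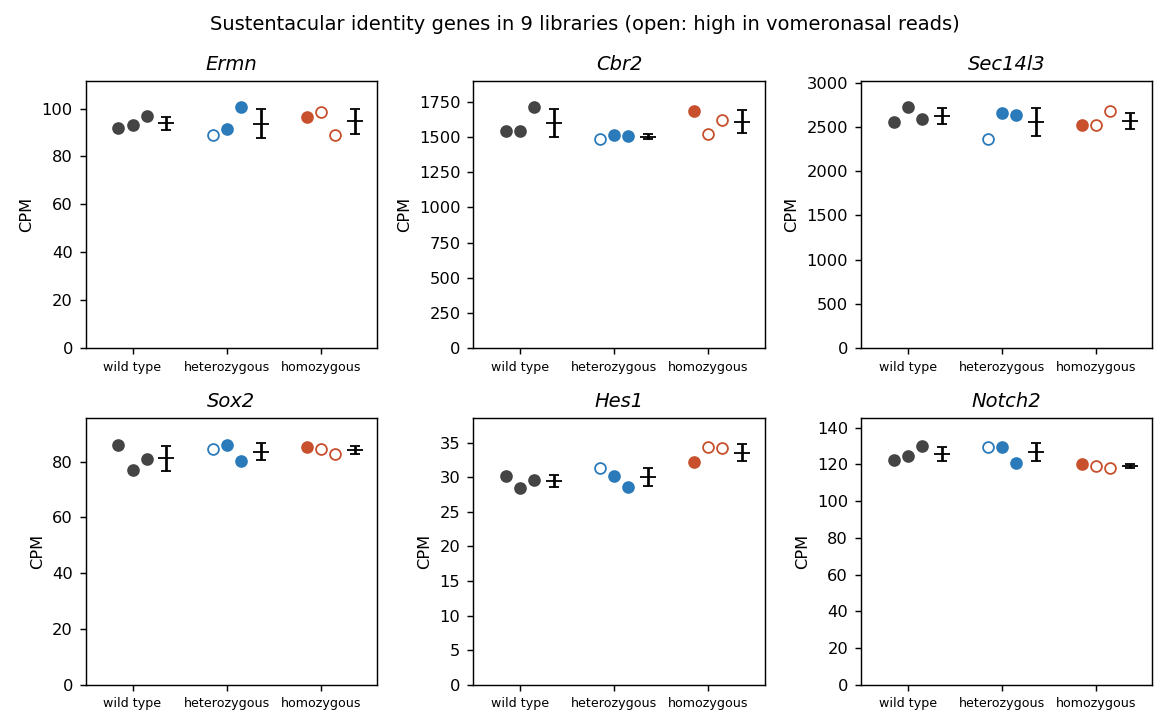
CPM of each of the 6 genes in the 9 libraries, by genotype, on axes that start at 0. Points are mice, open where vomeronasal reads were high, and the bars beside them give mean and SD (n = 3). The homozygous points are the highest for Hes1 (32.1 to 34.3 CPM) and the lowest for Notch2 (118 to 120 CPM), and the heterozygous points are the lowest for Cbr2 (1486 to 1516 CPM).

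Counted over the group, 0 of 6 members had an adjusted p under 0.05 between homozygous and wild-type mice, against 0.0495% of the genes tested. Ranges did not overlap for 2 of 6 (15.4% of all genes), with Hes1 above (7.46%) and Notch2 below (7.95%). In heterozygous against wild-type mice 0 of 6 were called (0.00495% of all genes) and the ranges were separate for 1 of 6, Cbr2 (8.68% of all genes, 4.36% higher and 4.32% lower). In homozygous against heterozygous mice 0 of 6 were called (0.114% of all genes) and the ranges were separate for 3 of 6 (14.1% of all genes), with Hes1 and Cbr2 higher (6.41%) and Notch2 lower (7.67%). The test for any difference among the genotypes also called 0 of 6 (0.0643% of all genes), with the smallest adjusted p, 0.490, for Hes1 (edgeR quasi-likelihood test), which was among the 8.45% of genes with an unadjusted p under 0.05. In this fit only Hes1 had an unadjusted p under 0.05 in the comparisons with homozygous mice, and no member had in heterozygous against wild type. Cbr2 in homozygous against heterozygous mice had an unadjusted p of 0.0565 (edgeR quasi-likelihood test). Its unadjusted p was under 0.05 in 10 of 19 other settings, with a smallest adjusted p of 0.375 (edgeR, DESeq2 or limma). Shared samples tie the comparisons together, since each genotype enters more than one of them.

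The intervals say how large a difference could have been present. In heterozygous against wild-type mice they ran from -12.3% to 11.6% over the 6 members, and in homozygous against heterozygous mice from -11.8% to 22.2%. The median log2 fold change of the members was 0.010, 0.0039 and 0.012 in homozygous against wild type, heterozygous against wild type and homozygous against heterozygous mice, where the medians of all genes tested were -0.00057, 0.0033 and -0.0017.

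**Figure D3:**
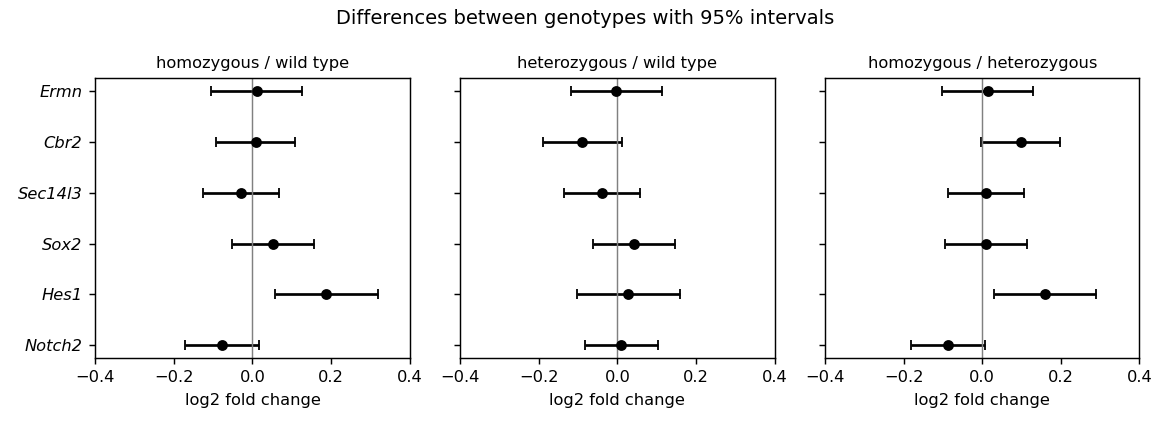
Log2 fold changes of the 6 genes in the 3 genotype comparisons, with 95% intervals from the edgeR fit. The intervals of Hes1 lie above 0 in both comparisons with homozygous mice (1.04 to 1.25 and 1.02 to 1.22 as folds), and every other interval spans 0; no adjusted p is under 0.05.

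Mice of one genotype differed little in these genes. The SD of log2 CPM within genotypes was 0.041 for Notch2, 0.054 for Hes1, 0.057 for Sox2, 0.067 for Cbr2, 0.068 for Sec14l3 and 0.074 for Ermn, against a median of 0.080 over 13160 genes. Notch2 was the steadiest: 9.20% of those genes varied less. Among genes within 2-fold of each member's own level, 19.0% varied less than Notch2, 15.8% less than Hes1 and 38.4% less than Sox2. The shares were 50% for Sec14l3, 57.6% for Cbr2 and 68.6% for Ermn.

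No pair of members was shown to vary together from mouse to mouse. Over 15 pairs of members and 9 libraries, which share library preparation and scaling, no correlation had an adjusted p under 0.05. The largest was that of Sec14l3 with Sox2, with Pearson r = -0.55 (permutation p = 0.124, adjusted p = 0.753) and Spearman rho = -0.42 (permutation p = 0.270, adjusted p = 0.809); without the 2 libraries farthest in Sec14l3 it was -0.38. Sox2 and Hes1 gave r = 0.53 (permutation p = 0.144, adjusted p = 0.753) and rho = 0.45 (permutation p = 0.230, adjusted p = 0.809), which fell to -0.044 without the 2 libraries farthest in Sox2 and so rests on them. The Notch target Hes1 and the receptor Notch2 ran in opposite directions, with r = -0.52 (permutation p = 0.151, adjusted p = 0.753) and rho = -0.63 (permutation p = 0.0760, adjusted p = 0.809), but r was 0.018 without homozygous libraries 2 and 3. Ermn, Cbr2 and Sec14l3, 3 markers of the same cell type, gave r between 0.10 and 0.17 with each other, but these values rest on few libraries. Without the 2 libraries farthest in the first gene named, r was 0.73 for Ermn with Cbr2, 0.14 for Ermn with Sec14l3 and 0.57 for Cbr2 with Sec14l3, and within the 6 libraries low in vomeronasal reads it was 0.28, -0.17 and -0.56. Within those 6 libraries r was -0.68 for Sec14l3 with Sox2, 0.80 for Sox2 with Hes1 and -0.17 for Hes1 with Notch2.

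Genes most like each member in level over the 9 libraries were sought among 13154 genes with at least 5 CPM on average. The members were left out of this search, so only other genes could be found. For Ermn the closest were Pmf1 (r = 0.95, rho = 0.97), Mocs2 (0.93 and 0.97) and Moxd1 (0.92 and 0.88). For Cbr2 they were Prmt7 (0.94 and 0.80), Aldh3b1 (0.94 and 0.88) and Grk6 (0.94 and 0.93), and for Sec14l3 Olfr1428 (0.91 and 0.83), Ccdc101 (0.90 and 0.92) and Haus5 (0.90 and 0.88). Sox2 was closest to Trmt112 (0.92 and 0.78), Mllt4 (0.87 and 0.80) and 1110019D14Rik (0.86 and 0.75). For Hes1 they were Dmrt3 (0.94 and 1), Arf5 (0.93 and 0.90) and Tspan33 (0.93 and 0.97), and for Notch2 Cxxc4 (0.98 and 0.93), Aox3 (0.95 and 0.97) and Deptor (0.95 and 0.92). With 9 libraries and this many genes such values describe likeness only. Notch2 had 54 genes with r of at least 0.9, Cbr2 had 10, Hes1 had 7, Ermn had 5, and Sec14l3 and Sox2 had 1 each.

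Beside Notch2, the receptors Notch1 and Notch3 were expressed at 80.3 ± 6.66 and 99.3 ± 2.29 CPM in wild type (SD, n = 3), and Notch4, a receptor of blood vessels, at 11.1 ± 1.18. Per kilobase in wild type, Notch3 (12.3 ± 0.284) and Notch2 (11.7 ± 0.351) were close in level and Notch1 (5.64 ± 0.468) was lower. In homozygous against wild-type mice Notch1 differed by -0.070 ± 0.066, Notch3 by -0.0012 ± 0.058 and Notch4 by -0.062 ± 0.13 on the log2 scale (SE), so that 0 of 3 other receptors were called.

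Of the ligands, Jag2 was the most abundant at 154 ± 3.79 CPM in wild type (SD, n = 3), followed by Jag1 at 55.8 ± 4.50, Dll1 at 7.24 ± 1.10, Dll4 at 6.92 ± 0.978 and Dll3 at 1.82 ± 0.152. Their log2 differences in homozygous against wild-type mice were 0.047 ± 0.053 for Jag2, -0.11 ± 0.066 for Jag1, 0.046 ± 0.12 for Dll1, 0.012 ± 0.13 for Dll4 and 0.28 ± 0.25 for Dll3 (SE). None was called. Jag1 had an unadjusted p under 0.05 in homozygous against heterozygous mice, at -0.15 ± 0.066 (edgeR quasi-likelihood test, adjusted p = 0.459).

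Hes1 was not the most abundant Notch target of the tissue. Hey1 was at 108 ± 1.86 CPM in wild type (SD, n = 3), above Nrarp at 20.1 ± 2.41, Heyl at 19.8 ± 2.13, Hey2 at 16.1 ± 2.02 and Hes5 at 3.96 ± 0.617; per kilobase, Hey1 (33.0) also lay above Hes1 (14.5). All 5 of these targets had a positive log2 difference in homozygous against wild-type mice, from 0.039 for Hey2 to 0.11 for Heyl, with 0.095 for Hes5, 0.062 for Hey1 and 0.078 for Nrarp, and none was called. Heyl was the target that differed most by p in heterozygous against wild-type mice, at 0.23 ± 0.082 (SE; edgeR quasi-likelihood test, adjusted p = 1.00). Hes5 differed by 0.34 ± 0.16 in the same comparison. In homozygous against heterozygous mice these targets lay on both sides of 0, at -0.25 ± 0.16 for Hes5, -0.12 ± 0.082 for Heyl, -0.047 ± 0.092 for Nrarp, 0.017 ± 0.11 for Hey2 and 0.073 ± 0.050 for Hey1, and no other target than Hes1 had an unadjusted p under 0.05.

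Over all 37 further genes of the pathway, which include the proteases, the nuclear partners of the receptor, and the modifiers and inhibitors of signalling, 0 were called in any of the 3 comparisons. An unadjusted p under 0.05 was reached by 2 of 37 in homozygous against wild type, 1 of 37 in heterozygous against wild type and 5 of 37 in homozygous against heterozygous mice, where 9.26%, 3.25% and 10.4% of all genes did. The median log2 fold change of the list was 0.018, 0.023 and 0.0084, respectively.

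**Figure D4:**
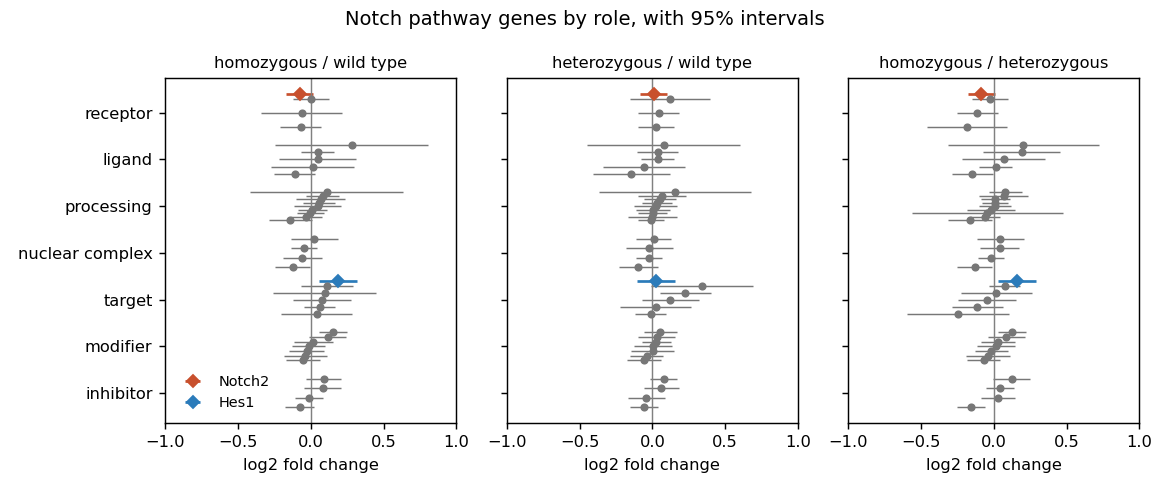
Log2 fold changes with 95% intervals of 37 Notch pathway genes, grouped by role, in the 3 genotype comparisons. Notch2 and Hes1 are drawn as diamonds in their roles. In homozygous against wild-type mice Hes1 is at 0.19 and Notch2 at -0.077, and no gene of the list has an adjusted p under 0.05.

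The other sustentacular markers were the enzymes Cyp2g1, Cyp1a2, Cyp2a5, Sult1c1 and Ugt2a1 and the keratins Krt8 and Krt18. They summed to 7342 to 7754 CPM in wild type. In homozygous libraries the sum was 6765 to 7166 CPM, below every wild-type library. Heterozygous libraries spanned 6937 to 7829 CPM and overlapped both. All 7 genes had a negative log2 difference in homozygous against wild-type mice, with a median of -0.12. In that comparison 3 of the 7 had separate ranges, where 15.4% of all genes did, and none was called. Of these 7, 1 was called, in homozygous against heterozygous mice: Ugt2a1, an olfactory glucuronosyltransferase, was read at 639, 686 and 656 CPM in heterozygous and 540, 525 and 560 CPM in homozygous libraries. It fell by 0.29 ± 0.049 on the log2 scale (SE; edgeR quasi-likelihood test, adjusted p = 0.0383), and against wild type it differed by -0.28 ± 0.049 (adjusted p = 0.0799 in the same test). Its adjusted p in homozygous against heterozygous mice passed in 9 of 19 other settings and was 0.782 without the libraries high in vomeronasal reads, where the difference was -0.32. Leaving out heterozygous library 1 or 2, homozygous library 1, 2 or 3, or wild-type library 1 or 2 also ended this call, with adjusted p-values from 0.0619 to 0.181 by edgeR. The difference itself kept its size in these fits, at -0.26 to -0.31 on the log2 scale. Of the 6 members, by comparison, 4 had a positive and 2 a negative log2 difference in homozygous against wild-type mice.

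For some other cell types the marker sums had separate ranges between homozygous and wild-type libraries. Single genes had separate ranges in this comparison in 15.4% of all genes tested. Homozygous libraries were above wild type for markers of mature sensory neurons (7113 to 7719 against 6928 to 7042 CPM) and immature neurons (1324 to 1378 against 1266 to 1311 CPM). They were below wild type for endothelial markers (69.3 to 75.0 against 79.6 to 81.2 CPM) and for the ciliated markers given above. No gene of these lists was called in this comparison, and no single immature neuron marker had separate ranges. Between heterozygous and wild-type libraries each of these sums overlapped. Notch2 is also expressed in vessels and other tissues, and its ranges were separate in the same comparison as the endothelial ones. Whether these cells have a part in the Notch2 or Hes1 values was not tested. The sums for Bowman's gland, ensheathing glia, secretory airway cells, connective tissue, macrophages and leukocytes overlapped between homozygous and wild-type libraries.

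**Figure D5:**
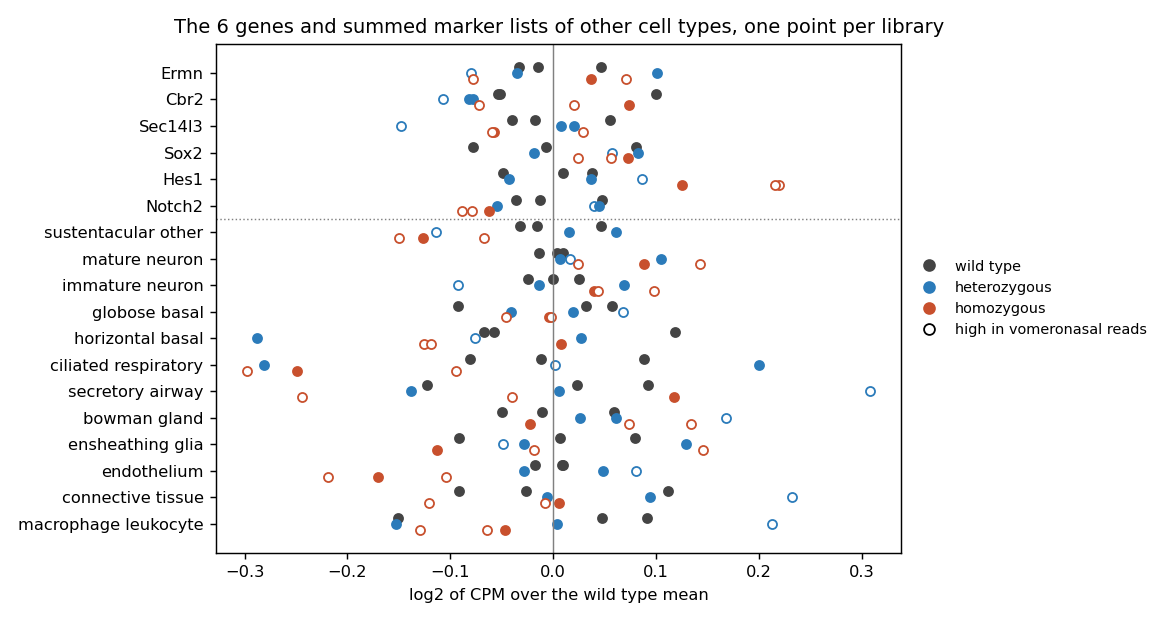
Log2 of CPM over the wild-type mean for each of the 6 genes (above the dotted line) and for summed marker lists of other cell types, with a point for each library and open points for the 3 libraries high in vomeronasal reads. Hes1 lies to the right and Notch2 to the left in all 3 homozygous libraries, beside endothelial sums of 69.3 to 75.0 CPM against 79.6 to 81.2 CPM in wild type.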

How the data were processed

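Whole MOE of 9 mice was sequenced after polyA selection with a strand-marking kit, and each mouse's genotype was taken from its label. The authors deposited whole-number counts of reads per gene, and a second table of normalized counts, a signal scaled by the authors with size factors of 0.903 to 1.20, which was used only to check that it was proportional to the counts. Their notes name Trimmomatic 0.36, HISAT2 2.1.0, HTSeq 0.6.1p1 and DESeq2 1.20.0 on GRCm38; the methods name featureCounts as the counter. The annotation and the strand setting of the counter are not given in the sources used here. The labels' strain and age were used as given; the study's own account of the strain and age of these mice does not match them in every place. Gene rows held 57.4 to 60.0% of the read assignments; 21.6 to 22.4% matched no gene, 1.29 to 1.35% were ambiguous and 16.9 to 19.4% mapped to several places, and these stayed out of library sizes and tests.

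The 20213 genes whose counts reached a total of 10 over all libraries were tested with edgeR 4.0.16 in R 4.3.3 (TMM scaling, quasi-likelihood fit of genotype over all 9 libraries, Benjamini-Hochberg adjustment over all of them, threshold 0.05). The study's methods use DESeq2; DESeq2 1.42.0 and limma 3.58.1 (voom) were alternatives. The edgeR fit was also run on simulated counts, with an outcome not given here. Positions and exon lengths came from GENCODE M21, which may differ from the counting annotation. Likeness between genes used log2 of CPM plus 0.5; member pairs were tested by two-sided permutation over the 9 libraries. At these depths 3 reads were worth 0.0919 to 0.122 CPM. Replicate libraries differed beyond counting noise (chi-square per degree of freedom 4.47 to 15.8), and none was a duplicate. The genes named are the 6 members, every Notch receptor, ligand and target, any other listed gene past the threshold, the 3 genes most like each member, and summed markers. Members and lists were chosen with earlier results of these data known.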

Additional observations from a re-analysis of the deposited data

How the results depend on the processing

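Of the 6 members, 0 were called in any comparison under any alternative, with a smallest adjusted p of 0.272 for homozygous against wild type, 0.276 for homozygous against heterozygous and 0.979 for heterozygous against wild type (edgeR, DESeq2 or limma); an unadjusted p under 0.05 occurred in 17, 26 and 2 of 114 values each. The 26 values in homozygous against heterozygous mice were 15 of Hes1, 10 of Cbr2 and 1 of Notch2. All 17 in homozygous against wild type were of Hes1, and both in heterozygous against wild type were of Cbr2. No pair of members correlated past the threshold in any setting. Of the alternatives that left out no single library, 172 values kept their side and 8 changed sign; with 1 library left out, 140 did and 22 changed sign. The cause was not tested, and none of these values was called.

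With the vomeronasal covariate the log2 differences that changed sign were 0.015 for Ermn and -0.0035 for Hes1 in heterozygous against wild type and 0.021 for Sec14l3 in homozygous against wild type. Without the 3 libraries high in vomeronasal reads they were 0.035 for Ermn, -0.0021 for Hes1, -0.0042 for Notch2 and 0.014 for Sec14l3 in heterozygous against wild type and -0.072 for Sec14l3 in homozygous against heterozygous mice. Leaving out 1 library gave, in heterozygous against wild type, -0.061 to 0.035 for Ermn, -0.0025 to 0.060 for Hes1, -0.0093 to 0.039 for Notch2 and -0.069 to 0.014 for Sec14l3; in homozygous against wild type, -0.025 to 0.065 for Cbr2, -0.017 to 0.052 for Ermn and -0.060 to 0.00074 for Sec14l3; and in homozygous against heterozygous, -0.024 to 0.073 for Ermn, -0.042 to 0.040 for Sec14l3 and -0.014 to 0.032 for Sox2. Hes1 in homozygous against wild type stayed between 0.12 and 0.22 over 19 alternatives. By the longest transcript, Cbr2 moved to 1441, Sec14l3 to 977 and Hes1 to 20.1 CPM per kilobase.

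Counts over all genes depended more on the setting. For homozygous against wild type, heterozygous against wild type, homozygous against heterozygous and any difference, edgeR called 10, 1, 23 and 13 genes, DESeq2 with default settings 63, 3, 130 and 123, DESeq2 without independent filtering 54, 3, 126 and 104, and edgeR with no filter on low counts 13, 1, 50 and 33. With the vomeronasal covariate they were 7, 1, 8 and 7, and without the libraries high in those reads 9, 1, 6 and 10. Within the 6 libraries of a pair they were 47, 0 and 11. With a 1.5-fold threshold added to the edgeR fit of all 9 libraries they were 9, 0 and 10. Leaving out 1 library gave 8 to 33, 0 to 1, 7 to 190 and 7 to 70, and 33, 190 and 70 were reached without heterozygous library 3. With the replicate number as a block they were 12, 0, 41 and 20, with 0 members called. Deviations of same-numbered libraries correlated at -0.062 to -0.013 for homozygous with wild type and -0.16 to 0.056 for heterozygous with wild type. For homozygous with heterozygous libraries they correlated at -0.043 to 0.30. Differently numbered libraries gave -0.016 to 0.053, -0.038 to 0.17 and -0.31 to 0.11 in the same order. The block is given here only, because the numbers mark no shared litter or day in the labels. With 3 mice a genotype, a change of a few percent in a member was not detectable. Hes1, at a log2 difference of 0.19 in homozygous against wild type, was not called either (edgeR, adjusted p = 0.397).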
